A study of Mus musculus with 12 samples.

Results

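The neurofilaments, the tubulins Tubb3 and Tubb6 and the axonal microtubule-associated proteins were followed in the auditory nerve of adult mice after a lesion with ouabain. The members are 10 genes, named by symbol: Nefl, Nefm, Nefh, Ina, Tubb3, Tubb6, Map2, Mapt, Map1a and Map1b. Each probe set of the array (a group of short probes that reports 1 transcript) annotated to exactly 1 of these symbols was taken, which gave 23 of the 45037 probe sets tested. Every one of the 10 genes was on the array, out of 18193 genes in all. Where a gene had several probe sets, the brightest one (by its mean of the 12 arrays) stands for the gene, and the others are given beside it.

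Ouabain blocks the sodium-potassium pump, and placed at the round window of the cochlea it kills most of the type I spiral ganglion neurons, whose axons form the auditory nerve. CBA/CaJ mice of both sexes, 8 to 12 weeks old and with no genetic change, received about 10 ul of 3 mM ouabain in the right round window niche for 60 min under anesthesia. The left ear of the mice was not operated on and served as the control, so surgery and drug cannot be told apart here. Tissue was collected after 3 or 7 days from the modiolus, where the nerve runs through the centre of the cochlea, and the 4 groups (control and ouabain at each day) had 3 arrays each, with 2 preparations pooled for an array. Mice with too small a loss of hearing after ouabain had been left out, which limits the treated groups to ears in which the lesion took. Nothing in the labels ties a control array to the mice of a given ouabain array, and the p-values measure the spread between pooled preparations.

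Neurofilaments are the intermediate filaments of neurons. The light, medium and heavy chains (Nefl, Nefm, Nefh) and alpha-internexin (Ina) assemble together and set the calibre of large myelinated axons. Microtubules run beside them as tracks for transport, built from tubulin dimers of which the beta chain Tubb3 is the one typical of neurons and Tubb6 is found in many other cell types. Tau (Mapt) and Map1b are held mainly in axons and Map2 mainly in dendrites and cell bodies, while Map1a joins them in mature neurons.

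Values are log2 expression values from the array, so a difference of 1 is a 2-fold change, and the medians of the 12 arrays lay between 6.01 and 6.09. The 20 measured markers of spiral ganglion neurons had a median level of 10.65 to 11.27 on the control arrays, and the 7 hair cell markers, of which none was called at either day, one of 5.08 to 5.35. A probe set was called lower or higher where its adjusted p was under 0.05 and the change exceeded 1.5-fold. In tissue of mixed cells, fewer cells of a type and less RNA per cell cannot be told apart, which holds for every value below.

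At 3 days, 7 of the 10 genes were called lower after ouabain (Nefl, Nefm, Nefh, Ina, Tubb3, Map2 and Map1a), 1 was called higher (Tubb6) and Mapt and Map1b were not called. Over all genes tested, 8.06% were called lower and 7.51% higher. At 7 days 8 were called lower, now with Map1b, against 8.20% of all genes, and Tubb6 was again called higher, against 7.57%. The median change of the members on the log2 scale was -2.07 at 3 days and -2.86 at 7 days, beside 0.01 and 0.03 over all genes. The control and ouabain arrays did not overlap for 9 of the 10 genes at each day, against 43.6% of all genes at 3 days and 46.1% at 7 days. By probe sets, 14 of 23 were lower and 1 higher at 3 days (background 6.58% and 5.71%), and 15 lower and 1 higher at 7 days (background 6.51% and 6.14%).

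**Figure D1:**
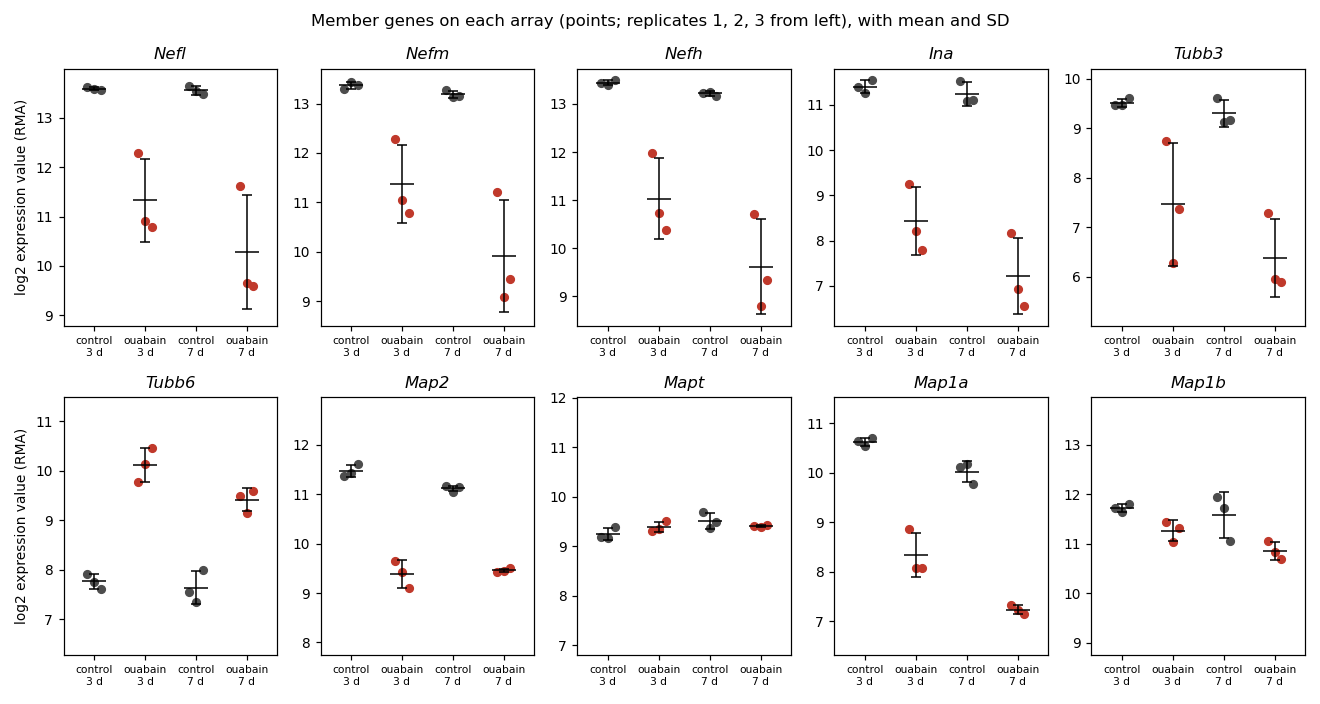
Log2 expression value (vertical axis, each panel spans its own range) of the brightest probe set of each member on the 12 arrays, grouped by treatment and day. Points are single arrays (replicates 1, 2 and 3 from left) and bars give the mean and SD of 3 arrays. Tubb6 lay higher and Mapt overlapped its controls, while the other 8 genes lay below their controls at both days.

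The 4 neurofilament genes fell together, by 3.98-fold to 7.89-fold at 3 days and by 9.62-fold to 16.3-fold at 7 days. Nefl read 13.61, 13.57 and 13.56 on the control arrays at 3 days and 12.29, 10.91 and 10.78 after ouabain. At 7 days it read 13.65, 13.53 and 13.47 in controls and 11.61, 9.65 and 9.59 after ouabain. The groups were apart at both days, with the first ouabain array of each day nearest to the controls. Nefl fell by 2.26 on the log2 scale at 3 days (4.77-fold, SE 0.48, adjusted p = 0.0043) and by 3.27 at 7 days (9.62-fold, SE 0.48, adjusted p = 0.00035). Its other probe set gave -2.45 and -3.36. With an equal-variance t-test adjusted over all probe sets in place of limma, which shares the spread between probe sets, the calls of Nefl and Nefm at both days and of Nefh and Tubb3 at 3 days were lost.

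Nefm, the medium chain, read 13.29, 13.43 and 13.38 in controls at 3 days and 12.28, 11.05 and 10.79 after ouabain, then 13.27, 13.13 and 13.16 against 11.22, 9.08 and 9.46 at 7 days. Its log2 fold change was -1.99 (SE 0.47, adjusted p = 0.00801) at 3 days and -3.27 (SE 0.47, adjusted p = 0.000291) at 7 days, a 3.98-fold and a 9.64-fold reduction. In the RefSeq gene table Nefl and Nefm lie on the same chromosome with 1 annotated gene between them, which is not protein-coding. Nefh, the heavy chain, read 13.43, 13.39 and 13.49 in controls and 11.98, 10.73 and 10.38 after ouabain at 3 days. By day 7 the values were 13.24, 13.26 and 13.17 in controls and 10.71, 8.79 and 9.34 after ouabain. Nefh was 5.30-fold lower at 3 days (log2 -2.41, SE 0.44, adjusted p = 0.00151) and 12.2-fold lower at 7 days (log2 -3.60, SE 0.44, adjusted p = 8.09e-05). For all 3 chains the control arrays kept within a SD of 0.09, and the SD over the ouabain arrays was 0.79 to 1.15.

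Ina had the largest reduction of the 10 genes at both days. It read 11.40, 11.27 and 11.55 in controls and 9.26, 8.21 and 7.80 after ouabain at 3 days, then 11.54, 11.09 and 11.10 against 8.17, 6.92 and 6.56 at 7 days. Every ouabain array lay more than 2 log2 units under the mean of its controls. Ina fell 7.89-fold at 3 days (log2 -2.98, SE 0.40, adjusted p = 0.000152) and 16.3-fold at 7 days (log2 -4.02, SE 0.40, adjusted p = 1.67e-05). Of 18193 genes, 45 had a more negative change at 3 days and 27 at 7 days. The other 2 probe sets of Ina gave -2.69 and -2.75 at 3 days and -3.76 and -3.45 at 7 days.

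The responses of the 4 filament genes were compared array by array, as 3 of 6 pairs of members tested with an exact two-sided permutation of the group labels within each day (400 arrangements, smallest possible p 0.005, adjusted over the 6 pairs). Ina fell further than Nefl, by 0.74 on the log2 scale averaged over the days (0.72 at 3 days and 0.76 at 7 days, exact p = 0.005, adjusted 0.0075). The response of Nefl minus that of Nefm was -0.13 (exact p = 0.16, adjusted 0.16), and minus that of Nefh 0.24 (exact p = 0.08, adjusted 0.096), and neither passed. The difference between Nefl and Nefm passed when ouabain 7-day replicate 2 was left out (-0.18, exact permutation, adjusted p = 0.036), and that between Nefl and Nefh without ouabain 7-day replicate 3 (0.35, exact permutation, adjusted p = 0.018). The control values of Nefl, Nefm and Nefh (13.13 to 13.65) lay near the highest values of the control arrays (14.34 to 14.45), where array signals can flatten, and whether this shortened their changes was not tested.

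Tubb3 and Tubb6 moved in opposite directions. Tubb3, the neuronal beta-tubulin, read 9.47, 9.48 and 9.61 in controls at 3 days and 8.74, 6.27 and 7.37 after ouabain, and 9.62, 9.13 and 9.16 against 7.29, 5.96 and 5.90 at 7 days. It was 4.16-fold lower at 3 days (log2 -2.06, SE 0.51, adjusted p = 0.00997) and 7.57-fold lower at 7 days (log2 -2.92, SE 0.51, adjusted p = 0.0011). The 3 ouabain arrays of day 3 spread from 6.27 to 8.74, the widest range of any member's brightest probe set within a group. The first of these arrays was only 0.78 below its control mean.

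Tubb6, a beta-tubulin of many non-neuronal cells, read 7.92, 7.75 and 7.62 in controls and 9.77, 10.13 and 10.45 after ouabain at 3 days. At 7 days its controls read 7.55, 7.35 and 8.00 and the ouabain arrays 9.49, 9.15 and 9.60. The lowest ouabain array stood more than 1 unit above the highest control. The increase was 5.12-fold at 3 days (log2 2.36, SE 0.19, adjusted p = 4.98e-06) and 3.43-fold at 7 days (log2 1.78, SE 0.19, adjusted p = 3.59e-05). A second Tubb6 probe set, which stayed between 5.34 and 5.95 on every array, gave 0.01 and -0.15 and was not called. The response of Tubb3 minus that of Tubb6 was -4.56 (exact permutation p = 0.005, adjusted 0.0075). With the groups of both genes apart in opposite directions, this p had to be the smallest possible. It adds nothing to the calls of the single genes. Markers of macrophages rose with Tubb6: at 3 days all 12 measured were called higher (median 1.82), and at 7 days 11 (median 1.77). Other non-neuronal lists had genes called higher too: 6 of 6 markers of dividing cells at 3 days and 0 at 7 days. For central glia 3 of 7 were higher at each day, and for fibroblasts 1 and then 3 of 8. The part of any of these cells in the rise of Tubb6 was not tested.

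**Figure D2:**
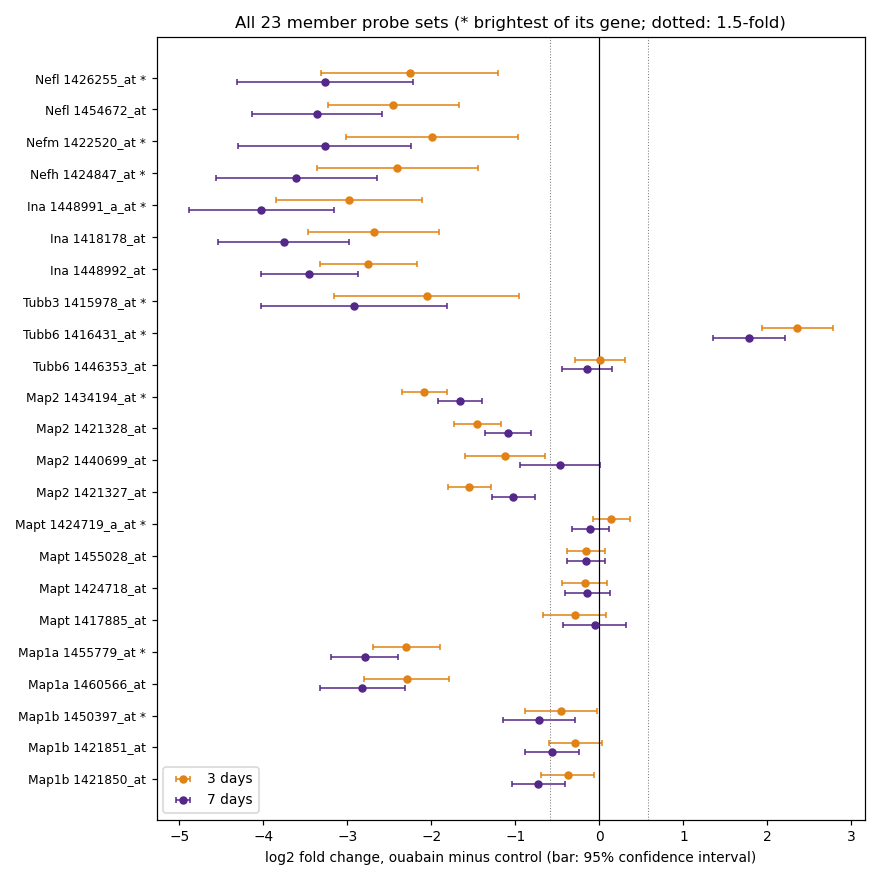
Log2 fold change of ouabain against control (horizontal axis) for the 23 member probe sets at 3 days (orange) and 7 days (purple). Bars are 95% confidence intervals from the fit over 12 arrays, a star marks the brightest probe set of a gene and the dotted lines mark a 1.5-fold change. All probe sets of Nefl, Ina and Map1a lay at -2.26 or lower, those of Mapt lay around 0, and the 2 of Tubb6 differed.

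Among the microtubule-associated proteins, Map2 and Map1a fell several-fold at both days, Map1b was called lower at 7 days and Mapt was not called. Map2 read 11.36, 11.43 and 11.61 in controls and 9.64, 9.42 and 9.09 after ouabain at 3 days, and 11.16, 11.05 and 11.14 against 9.43, 9.44 and 9.50 at 7 days. The ouabain arrays of day 7 were within 0.1 unit of each other, unlike those of the neurofilaments. Map2 fell 4.24-fold at 3 days (log2 -2.08, SE 0.12, adjusted p = 4.68e-07) and 3.16-fold at 7 days (log2 -1.66, SE 0.12, adjusted p = 2.29e-06). All 4 Map2 probe sets were called lower at 3 days, from -2.08 to -1.12. At 7 days 3 were called, and the remaining one gave -0.47 (adjusted p = 0.144) with overlapping groups.

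Map1a, a microtubule-binding protein of mature neurons, read 10.65, 10.54 and 10.70 in controls and 8.85, 8.07 and 8.07 after ouabain at 3 days. The controls of day 7 read 10.11, 10.17 and 9.78, and the ouabain arrays 7.33, 7.22 and 7.14. Its reduction was 4.91-fold (log2 -2.30, SE 0.18, adjusted p = 3.95e-06) and then 6.93-fold (log2 -2.79, SE 0.18, adjusted p = 1.05e-06). The second probe set gave nearly equal values, -2.29 and -2.82. Map1b, its relative with a prominent role in growing axons, read 11.71, 11.64 and 11.81 against 11.45, 11.03 and 11.31 at 3 days and 11.95, 11.72 and 11.05 against 11.05, 10.83 and 10.69 at 7 days. The third control array of day 7 stood level with the first ouabain array of that day.

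The log2 change of Map1b was -0.46 at 3 days (95% confidence interval -0.88 to -0.03, adjusted p = 0.123), which was not called, and -0.72 at 7 days (SE 0.20, 1.64-fold, adjusted p = 0.0173). Of its 3 probe sets, none was called at 3 days (-0.46 to -0.29) and 2 were at 7 days (-0.72 each), the third giving -0.56 (adjusted p = 0.0133, under 1.5-fold). The difference between its responses at the 2 days was -0.26 (95% confidence interval -0.86 to 0.34) and did not pass. The call at 7 days was lost without control replicate 1 (-0.53, adjusted p = 0.0777), control replicate 2 (-0.64, adjusted p = 0.0661) or ouabain replicate 3 (-0.63, adjusted p = 0.06) of that day. Map1a fell further than Map1b by 1.96 log2 units (exact permutation p = 0.005, adjusted 0.0075).

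Mapt, the gene of tau, was the member whose groups overlapped at both days. It read 9.19, 9.16 and 9.39 in controls and 9.31, 9.35 and 9.51 after ouabain at 3 days, and 9.69, 9.37 and 9.48 against 9.40, 9.38 and 9.44 at 7 days. The log2 difference was 0.14 at 3 days (95% confidence interval -0.08 to 0.36, adjusted p = 0.383) and -0.11 at 7 days (-0.33 to 0.11, adjusted p = 0.497). These intervals leave out a change of 1.5-fold in either direction. The other 3 Mapt probe sets lay between -0.30 and -0.16 at 3 days and between -0.16 and -0.06 at 7 days, with no call. The response of Map2 minus that of Mapt was -1.89 (exact permutation p = 0.005, adjusted 0.0075). Which cells of the nerve carried the Mapt signal was not measured, and the markers of Schwann cells, the glia that myelinate these axons, went both ways: of 9 measured, 2 were lower and 2 higher at 3 days, and 3 lower and 3 higher at 7 days (medians -0.13 and -0.10).

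Promoter sequence is shown for 4 members that stand at different places in this order: Ina, Tubb3 and Map1a, which fell several-fold, and Map1b, which was called at 7 days with a 1.64-fold change. Entries of the RefSeq promoter table (GRCm38.p6) were searched for 5 of the 10 members, and Nefl, Nefm, Nefh, Mapt and Tubb6 are named only. The search left out any member entry on 1 chromosome by a fixed rule, for which no reason was given. The shares over all entries below kept that chromosome, so the 5 entries searched and all entries are not like sets. Absence from the search therefore does not mean that the table held no entry for a member. Printed are the 150 bases before the start that this table gives, 5′ to 3′ on the strand of the gene, with the letters of the GC box (GGGCGG, or CCGCCC where it lies on the other strand) in capitals. The last 12 bases of the Map1a entry lie inside the span of the gene in the RefSeq gene table. For Map2 127 bases do, and its entry was searched but is not printed.
Ina (chr19:47014531-47014680, plus strand): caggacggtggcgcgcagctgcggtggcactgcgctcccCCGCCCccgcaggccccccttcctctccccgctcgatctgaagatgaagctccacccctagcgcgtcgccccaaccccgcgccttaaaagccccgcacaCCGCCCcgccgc
Tubb3 (chr8:123411403-123411552, plus strand): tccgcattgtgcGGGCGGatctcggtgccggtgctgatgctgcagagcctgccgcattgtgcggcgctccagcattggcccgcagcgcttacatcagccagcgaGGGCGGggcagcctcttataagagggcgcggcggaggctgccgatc
Map1a (chr2:121289452-121289601, plus strand): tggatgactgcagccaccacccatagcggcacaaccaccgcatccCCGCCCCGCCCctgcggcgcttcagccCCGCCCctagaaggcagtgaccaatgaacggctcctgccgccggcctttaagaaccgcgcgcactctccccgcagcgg
Map1b (chr13:99516603-99516752, minus strand): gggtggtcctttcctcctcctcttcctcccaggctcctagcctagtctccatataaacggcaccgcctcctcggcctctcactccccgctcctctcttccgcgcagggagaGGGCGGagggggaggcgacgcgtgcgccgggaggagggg
The GC box was present in all 5 entries searched, with 2 matches in Ina and Tubb3, 3 in Map2 and Map1a (of which 2 share a base in Map1a) and 1 in Map1b, and in 28.6% of the 32851 promoter entries over the same 150 bases. CCAAT, read on both strands, was in Tubb3 and Map1a and in 24.5% of all entries. TATAAA, also on both strands, was in Map1b and in 7.57% of all entries. These matches are letters in a window and say nothing about binding.

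The size of the loss differed between ouabain arrays of the same day. The median difference of the 10 members from the controls of the day was -1.19, -2.43 and -2.47 on the 3 ouabain arrays at 3 days and -1.95, -3.07 and -3.14 at 7 days. Replicate 1 of each day was the least reduced. The 20 measured markers of spiral ganglion neurons gave the same order of the first array against the others, with medians of -1.55, -2.76 and -2.79, then -2.30, -3.31 and -3.70. Over the 4 neurofilament genes the mean shift was -1.49, -2.72 and -3.01 at 3 days and -2.37, -4.19 and -4.06 at 7 days. Map2 differed less between the arrays (-1.83, -2.05 and -2.37, then -1.69, -1.67 and -1.62), and Tubb6 stood at 2.01, 2.37 and 2.69, then 1.86, 1.52 and 1.96. Without both arrays of replicate 1, a choice made after their values were seen, the same numbers of members were called (7 lower and 1 higher, then 8 and 1), with Nefl at -2.74 and -3.93 and Ina at -3.40 and -4.50.

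**Figure D3:**
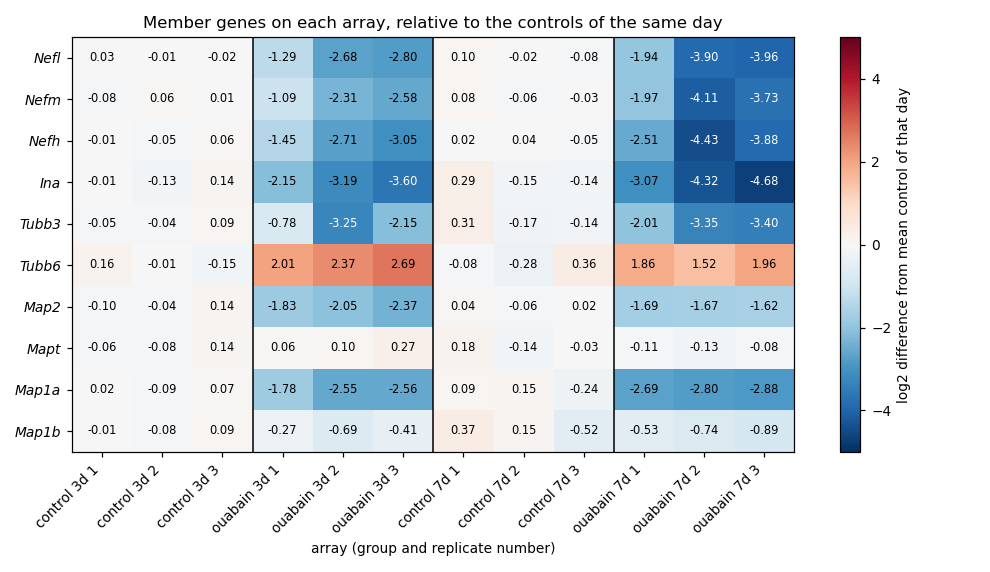
Log2 difference of each member (rows) from the mean control value of the same day on each of the 12 arrays (columns), blue for lower and red for higher, with the value in each cell. Control arrays lie near 0, and the first ouabain array of each day is paler than the other 2 for the neurofilaments and Tubb3.

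Whether the response changed between 3 and 7 days was tested as the difference of the 2 responses. With all arrays, 0 of 10 members passed in limma at adjusted p under 0.05, against 1.24% of all genes, and 1 (Map2) had an unadjusted p under 0.05. The response of Map2 was smaller at 7 days by 0.42 log2 units (95% confidence interval 0.05 to 0.80, adjusted p = 0.326). From 3 to 7 days the mean of Map2 went from 9.39 to 9.46 after ouabain and from 11.47 to 11.11 in controls. Most of this difference thus lay in the controls. The neurofilament responses were larger at 7 days by point estimate: the difference was -1.01 for Nefl (95% confidence interval -2.50 to 0.48), -1.28 for Nefm (-2.73 to 0.18), -1.20 for Nefh (-2.56 to 0.16) and -1.04 for Ina (-2.26 to 0.18), with adjusted p from 0.461 to 0.591. Without both ouabain arrays of replicate 1 the differences were -1.19, -1.47, -1.27 and -1.10, and 3 members (Nefl, Nefm and Nefh) passed with adjusted p of 0.00357, 0.0066 and 0.0314, against 1.35% of all genes. Those arrays were left out for their values of these genes, which narrows the spread (SE of the Nefl response 0.09 in place of 0.48), so these p-values are not independent evidence of a difference. Between the controls of the 2 days, 0 of 10 members were called and 3 had an unadjusted p under 0.05 (Map2 -0.35, Mapt 0.27 and Map1a -0.61), while 3 of all genes were called.

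Other genes of the filament and microtubule system were counted in the same way, and each count is to be read against the 8.06% lower and 7.51% higher over all genes at 3 days and the 8.20% and 7.57% at 7 days. A list with 1 called gene in a direction is near or below that share. Of the 12 other intermediate filament genes, 6 were called higher and 1 lower at 3 days (median 0.57), and 7 higher and 1 lower at 7 days (median 0.95). The higher ones included Gfap and Vim, filaments of glia and of many non-neuronal cells, at 1.89 and 1.80 at 3 days and 1.89 and 1.36 at 7 days, and Nes, a filament of progenitor and reactive cells, at 1.89 and 1.62. Prph, peripherin, the filament of peripheral and type II spiral ganglion neurons, rose by 1.72 (SE 0.24) and 1.05 (SE 0.24), opposite to the other neuronal filaments above. Synm, synemin, was the one called lower, at -0.94 and -1.35 (SE 0.26).

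Of 13 other tubulins, 2 were lower and 2 higher at 3 days, and 2 lower and 1 higher at 7 days. Tubg2, a gamma-tubulin that nucleates microtubules, was lower, at -2.70 and -2.63 (SE 0.11), as was Tuba4a, at -0.93 and -0.94 (SE 0.10). Tubb2b, a beta-tubulin of developing neurons and glia, rose by 2.70 and 1.57 (SE 0.29). Tubb5 rose by 0.66 (SE 0.09) at 3 days and gave -0.02 at 7 days, and the difference between the days passed (-0.68, adjusted p = 0.0255).

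Of 32 other regulators of microtubules, 10 were lower and 1 higher at 3 days (median -0.19), and 11 lower and 1 higher at 7 days (median -0.33). The 4 with the largest change at either day among those that fell were Stmn3 and Stmn2, neuronal stathmins that bind free tubulin, at -2.15 and -1.83 and then -3.19 and -2.75, with Map7d2 at -1.85 and -2.56 and Crmp1 at -1.29 and -1.79. Dclk1, a doublecortin-like kinase, was the one that rose, by 1.62 and 1.04 (SE 0.15). Of 20 transport motor genes, 10 were lower at 3 days (median -0.62) and 13 at 7 days (median -0.88), and none rose. Dync1i1, a dynein intermediate chain, was at -2.75 and -3.09, the kinesins Kif5a and Kif5c at -2.09 each and then -2.99 and -2.83, and Kif3c at -2.23 and -2.45.

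Of 17 kinases and phosphatases that act on neurofilaments and tau, 7 were lower at each day (medians -0.36 and -0.53) and none higher. They included Mapk10, the neuronal JNK, at -2.56 and -3.19, and the Cdk5 activators Cdk5r2 and Cdk5r1 at -2.12 and -1.16, then -2.73 and -1.68, and the phosphatase subunit Ppp2r2b at -1.29 and -1.50. For comparison, of the 20 neuron markers 16 were lower at 3 days (median -2.34) and 17 at 7 days (median -3.14).

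**Figure D4:**
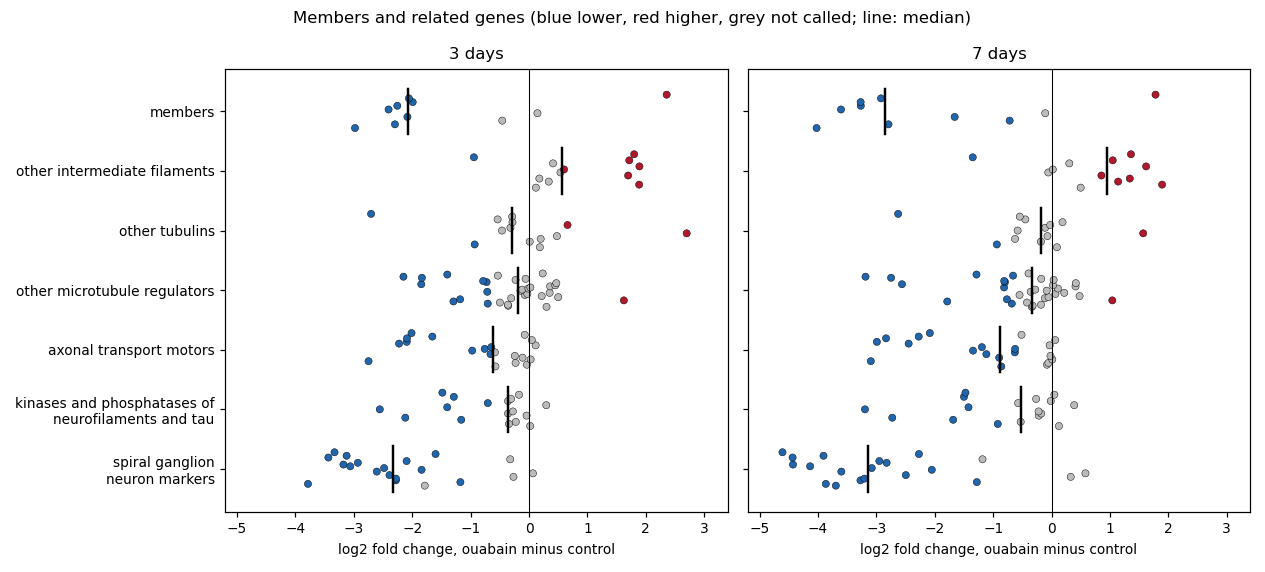
Log2 fold change of ouabain against control (horizontal axis) at 3 days (left) and 7 days (right) for the 10 members, 5 lists of related genes and the neuron markers, 1 point per gene. Blue points were called lower, red higher and grey not called, and the black line is the median of a list. Of the members, Tubb6 lies to the right of 0, Mapt near 0 and Map1b between Mapt and the remaining 7, which lie between -2.98 and -1.99 at 3 days and between -4.02 and -1.66 at 7 days.

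The pattern over the 12 arrays was described by Pearson's r, with no test, since the arrays share the contrast of ouabain and control. Nefl was most like Nefm (0.992), Nefh (0.991), Ina (0.987) and Tubb3 (0.974) among the members, then Map1a (0.943), Map2 (0.892) and Map1b (0.839). Mapt gave -0.12 and Tubb6 -0.82. Among 12313 other genes with a mean above 6, those most like Nefl were Stmn3 (0.996), Cplx1 (0.994), Scn1a (0.993), Sult4a1 (0.993) and Ankrd34b (0.992). Those most like Tubb6 were Mfsd1 (0.996), Cmtm3 (0.992), Anxa7 (0.992), Grn (0.991) and Acap2 (0.991).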

How the data were processed

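Auditory nerve tissue was measured on Affymetrix whole-genome mouse expression arrays. The deposited values are log2 expression values that the authors obtained by RMA, a method that corrects background, scales arrays to one distribution and sums probes, and they were used as they stand. The submitters' processing notes also name Affymetrix Expression Console and MAS5, without versions. RMA makes the arrays alike in distribution, so changes are relative to the rest of the array. The labels and the methods give different amounts of input RNA.

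Of 45101 probe sets, 64 array controls were left out. Of the 45037 tested, 34945 carried 1 symbol in the platform annotation, 932 several and 9160 none. By Entrez identifier 34741 matched the RefSeq table, among them those of all 10 members. One limma fit (version 3.58.1, R 4.3.3) with 4 group means was made on all 12 arrays, with Benjamini-Hochberg adjustment over all 45037 probe sets and the 1.5-fold threshold of the study's methods, which name an unpaired test. It was tested on simulated data. Pairs of members were compared by exact permutation. The precision is limited by 3 arrays per group, and no depth applies to arrays. Correlations between arrays were 0.966 to 0.995, so none was a copy of another.

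All probe sets of the members are reported. Of each list, up to 4 called genes with the largest change and any gene called against the majority were named, and the 5 genes most like Nefl and Tubb6. Marker lists of the 9 cell types that the tissue could hold were counted. At 3 and 7 days, 1 and then 3 of 8 fibroblast markers and 3 and 3 of 7 central glia markers were called higher. For dividing cells 6 and then 0 of 6 were called higher, and 0 of 8 for endothelium and for marrow and blood. The control arrays of day 7 differed among themselves, with median shifts of 1.50, -0.68 and -0.82 for dividing cells. Marrow and blood markers gave 0.82, 0.02 and -0.62 on them. The 0 of 6 at 7 days therefore does not show that division had ended. The members and lists were chosen with earlier results of these data known. Promoters were read with Python 3.11.15 and figures drawn with matplotlib 3.10.9. Alternatives were the replicate block, single-day fits, other tests, thresholds, scalings and summaries of probe sets, and each array left out.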

Additional observations from a re-analysis of the deposited data

How the results depend on the processing

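Of the single-gene values under the alternatives, 684 kept their direction and their side of the threshold, 13 lost the call, 3 gained it and none reversed. The methods' t-test without adjustment gave the same 7 lower and 1 higher at 3 days, and 7 lower and 1 higher at 7 days. With Benjamini-Hochberg adjustment of the equal-variance t-test, 3 members were lower at 3 days and 5 at 7 days, since Nefl, Nefm, Nefh and Tubb3 at 3 days and Nefl, Nefm and Map1b at 7 days then had adjusted p of 0.0539 to 0.205. Map1b at 7 days also lost its call in the limma fit to that day alone (adjusted p = 0.0576), in the methods' t-test and above 2-fold. The 3 that gained a call were the differences between the days of Nefl, Nefm and Nefh, for which 3 members passed without both ouabain arrays of replicate 1. With each array left out in turn, 7 members were lower at 3 days and 7 to 8 at 7 days, 1 was higher at each day, and 0 differed between the days. The response of Nefl minus that of Nefm ranged from -0.18 to -0.072 and that of Nefl minus that of Nefh from 0.19 to 0.35, and with the mean over probe sets the latter was 0.17 (exact permutation, adjusted p = 0.042). The causes were not tested. Whether equal replicate numbers mark a shared origin could not be settled. Deviations of same-numbered control and ouabain arrays correlated at 0.315, 0.028 and 0.161 at 3 days and 0.312, 0.182 and 0.036 at 7 days. All of these were positive, and arrays of unlike number gave -0.348 to 0.223. Not every array correlated best with its own number. With the replicate number as a block, 2863 genes were called at 3 days in place of 2834, and 2923 at 7 days in place of 2870, and 7 and 8 members were lower and 1 higher. Without both ouabain arrays of replicate 1, 11 and 13 of 20 transport motors were lower. The control arrays of day 7 had a SD of 0.47 for Map1b, against 0.08 at 3 days.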
